A study of Mus musculus with 10 samples.

Results

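Imprinted growth genes are a set of 10 genes read from 1 parental allele: Igf2, H19, Cdkn1c, Plagl1, Peg3, Mest, Meg3, Zrsr1, Zdbf2 and Asb4. They were taken by name from a table of 13578 genes, and all 10 have a row. RNA sequencing measured their expression in the Oct4-negative somatic cells of the gonad, each library from a single female mouse embryo of day 13.5. All embryos were Gulo-/- on a C57BL/6 background, so they lacked the last enzyme of vitamin C synthesis and drew the vitamin from the maternal diet. In 5 embryos vitamin C had been withdrawn from the diet for the first 2 weeks of gestation (withdrawn), and in 5 it had been supplied at physiological level (supplied). Oct4-negative cells are what remains of the gonad after germ cells are sorted away, so the samples can hold every somatic cell type of the gonad. The comparison asks whether withdrawal moves the expression of these genes, and a further question is how they vary together between embryos.

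Genomic imprinting marks an allele with DNA methylation in the parental germline, and the mark then keeps 1 of the 2 parental copies silent in the embryo. Many imprinted genes act on fetal growth, where genes read from the paternal copy tend to promote it and genes read from the maternal copy tend to restrain it. Erasure of these marks in germ cells uses TET enzymes, for which vitamin C is a cofactor. Somatic cells keep the marks. The values here are sums over both alleles and hold no information on which allele was read.

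Values are the authors' regularised log2 values (rlog), a scale that is shrunken most for weakly expressed genes. Sample medians lay between 9.12 and 9.14, and the depth of each sample is unknown, which leaves no counting interval. Differences are withdrawn minus supplied on this scale, and ± marks the SD of the n = 5 embryos of a group. Levels are compared within a gene and never between genes, since rlog is not per length. In bulk samples fewer cells of a type and less RNA per cell cannot be told apart. The title numbers show that embryos 2 and 3 of each group share a number, and the labels do not say whether they are litter mates. All 11 pregranulosa markers looked for have a row, among them Foxl2, Wnt4 and Rspo1, whereas the germ cell genes Pou5f1, Ddx4 and Dazl have no row under these symbols and 5 of 15 germ cell markers have one.

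Supplied embryos 2 and 3 stood apart in some neuroendocrine and neuronal genes. Chgb, a secretory granule protein of neuroendocrine cells, was at 12.42 and 10.76 in them, against 6.82 to 8.36 in the other 8 embryos. The 8.36 was in supplied embryo 1, and the rest were at 7.10 or below. Nefm, a neurofilament gene, was at 10.10 and 9.42 there, against 8.18 to 8.57. Not every marker set them apart. Stmn2 was highest in withdrawn embryo 1 (8.96), and Isl1 was at 5.97 in supplied embryo 3, below withdrawn embryos 2 (6.12) and 4 (6.13). Of 26 markers listed for these cells 14 have a row, and the catecholamine genes Th and Dbh do not. The mean of the 14 in SD units ran between -0.529 and -0.173 in withdrawn embryos and between -0.546 and 1.97 in supplied embryos. For genes of the set in which these embryos are extreme, the difference is given with and without them.

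Withdrawn embryo 3 and supplied embryos 4 and 5 stood apart in long RNAs that stay in the nucleus. Malat1 was at 18.05 in withdrawn embryo 3 and at 17.76 and 18.13 in supplied embryos 4 and 5, against 17.18 to 17.43 in the other 7 embryos. Neat1, the scaffold of nuclear paraspeckles, was at 8.99, 8.84 and 8.94 in these 3 embryos, against 8.25 to 8.52. The ribosomal RNA precursor Rn45s was at 21.22, 21.19 and 21.13, against 20.56 to 20.90. Malat1, Neat1, Rn45s and Xist were picked after their values were seen. Withdrawn embryo 3 and supplied embryo 4 also had the highest scores of immediate early genes such as Fos (1.69 and 1.71). The other embryos ran between -1.03 and 0.531, with supplied embryo 5 at -0.137. Leaving out the embryos of high Malat1 thus also leaves out those of high immediate early score, and the parts of each were not tested.

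RefSeq promoter windows on GRCm38.p6, each of 300 bases with 250 before and 50 after a transcript start, were found for 8 of the 10 genes, 16 windows in all. They are shown because the hexamer TGCCGC, in its methylated form, is what ZFP57 binds to hold imprints through development. The hexamer was searched on both strands, so that GCGGCA counts as well, and copies that overlap each other were counted. At least 1 copy lay in 6 of the 16 windows, in 5 genes, whereas 11.6% of 32851 mouse windows hold it. The upstream start of Zdbf2, which lies 72.9 kb from its other start, had 3 copies, a pair of Mest starts with nearly the same window had 2 each, and starts of Plagl1, Meg3 and Igf2 had 1 each. In the sequences below, 5′ to 3′ on the plus strand, capitals mark the hexamer. The windows are chr10:13090582-13090881 for Plagl1, chr1:63200108-63200407 for Zdbf2, chr6:30737800-30738099 for Mest and chr12:109540746-109541045 for Meg3. They held 26, 15, 17 and 13 CG dinucleotides, where the median of all windows is 7. The hexamer itself holds a CG and these windows were chosen for it, so their CG counts are not independent of that choice. Windows of the set without the hexamer held from 1 (Meg3) to 38 CG (Zdbf2). The share of 11.6% over all windows is not matched for CG content.
Plagl1: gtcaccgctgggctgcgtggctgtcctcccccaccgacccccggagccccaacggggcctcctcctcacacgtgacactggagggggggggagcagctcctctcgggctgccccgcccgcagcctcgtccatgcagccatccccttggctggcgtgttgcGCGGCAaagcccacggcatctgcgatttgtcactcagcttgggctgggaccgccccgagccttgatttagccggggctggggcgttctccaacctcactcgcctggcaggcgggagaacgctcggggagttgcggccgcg
Zdbf2: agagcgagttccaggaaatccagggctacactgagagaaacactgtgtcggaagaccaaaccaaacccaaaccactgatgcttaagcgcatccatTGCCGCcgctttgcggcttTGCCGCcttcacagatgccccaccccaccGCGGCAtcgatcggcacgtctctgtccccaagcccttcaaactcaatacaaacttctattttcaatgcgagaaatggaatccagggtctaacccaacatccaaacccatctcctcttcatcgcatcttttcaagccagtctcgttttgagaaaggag
Mest: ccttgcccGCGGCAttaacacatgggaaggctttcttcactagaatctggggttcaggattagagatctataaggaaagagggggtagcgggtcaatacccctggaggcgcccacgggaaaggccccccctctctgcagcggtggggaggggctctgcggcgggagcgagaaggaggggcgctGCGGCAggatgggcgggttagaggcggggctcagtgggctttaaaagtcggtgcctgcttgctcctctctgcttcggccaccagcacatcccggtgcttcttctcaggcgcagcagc
Meg3: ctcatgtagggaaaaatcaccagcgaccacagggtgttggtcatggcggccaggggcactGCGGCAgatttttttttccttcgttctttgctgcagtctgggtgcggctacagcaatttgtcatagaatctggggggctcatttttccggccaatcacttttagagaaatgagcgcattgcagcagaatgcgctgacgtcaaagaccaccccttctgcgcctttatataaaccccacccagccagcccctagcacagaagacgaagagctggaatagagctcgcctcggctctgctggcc

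H19, Igf2, Mest and Meg3 also host microRNAs, and those of the first 3 are shown because they are further products of these genes. Mature miR-675 comes out of H19 and is known in mouse to restrain Igf1r, miR-483 lies within Igf2, and miR-335 lies within Mest. The mature sequences are from RefSeq on GRCm38.p6, and capitals mark the seed, bases 2 to 8. No 2 of them share a seed. Of the hairpins Mir675, Mir483, Mir335 and, within Meg3, Mir770 and Mir1906-1, Mir335 alone has a row, and its level was between 5.93 and 6.07 in withdrawn and between 5.94 and 6.13 in supplied embryos.
mmu-miR-675-5p: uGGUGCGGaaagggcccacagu
mmu-miR-675-3p: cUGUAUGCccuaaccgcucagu
mmu-miR-483-5p: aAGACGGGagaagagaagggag
mmu-miR-483-3p: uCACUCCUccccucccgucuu
mmu-miR-335-5p: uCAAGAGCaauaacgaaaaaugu
mmu-miR-335-3p: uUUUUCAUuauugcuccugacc

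No imprinted growth gene passed the threshold when vitamin C was withdrawn. By limma with Benjamini-Hochberg adjustment over all 13578 genes, 0 of 10 passed an adjusted p of 0.05, beside 0.0221% of all genes (3 genes). Plagl1 was higher and Zrsr1 and Zdbf2 were lower at an unadjusted p under 0.05, 3 of 10 genes where 5.30% of all genes reach it, 1 higher beside 2.45% of all genes and 2 lower beside 2.84%. The groups overlapped in all 10 genes, and 0.810% of all genes (110) had groups that did not overlap. Of the 10 differences 4 were above 0 and 6 below, with a median of -0.012, and the median of all genes was 0.00021. Replicates of a group are separate embryos per the design text, so p-values measure the spread between embryos, taken as independent. The diet was given to the mothers, and embryos 2 and 3 of each group share a title number. Because the labels do not say which embryos share a mother, the p-values cannot be read as the spread between mothers.

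**Figure D1:**
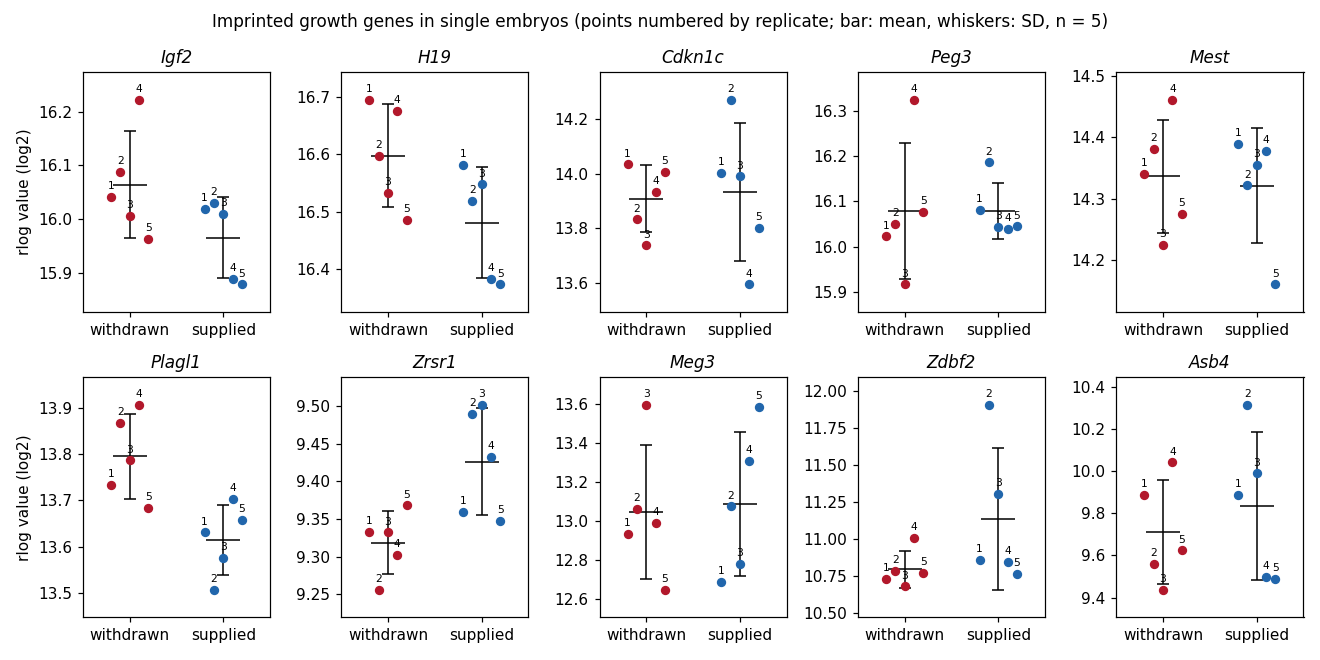
Each panel plots the rlog value (log2, vertical axis) of 1 gene in 5 withdrawn (left, red) and 5 supplied embryos (right, blue), numbered by replicate, with the mean as a bar and the SD as whiskers. The groups overlap in every panel, supplied embryo 2 is highest for Zdbf2 at 11.90, and the vertical axes differ between panels and do not start at 0.

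Among the transcription factors, Plagl1 had the smallest p of the set. Plagl1 (also Zac1, chromosome 10) is a zinc finger factor read from the paternal allele that regulates a network of imprinted genes in mouse. It was at 13.73, 13.87, 13.79, 13.91 and 13.68 in withdrawn embryos 1 to 5, against 13.63, 13.51, 13.58, 13.70 and 13.66 in supplied embryos 1 to 5. The groups overlapped by 1 withdrawn embryo, number 5, which lay below supplied embryo 4. The mean was 13.80 ± 0.0921 in withdrawn and 13.62 ± 0.0758 in supplied embryos. The difference of 0.18 (SE 0.0540, 1.13-fold) has a 95% interval from 0.066 to 0.29 and missed the threshold (limma adjusted p = 0.865). It was 0.13 without supplied embryos 2 and 3 and 0.23 without the 3 embryos of high Malat1. Stromal markers moved the same way: 13 of 14 were higher in withdrawn embryos, with a median difference of 0.074, beside 6813 of all 13578 genes. At an unadjusted limma p under 0.05, 3 were higher (Dcn at 0.24, Col3a1 at 0.19 and Pdgfra at 0.15), beside 2.45% of all genes. None of the stromal markers passed over all genes. Markers of 1 cell type come from the same embryos, so they are not separate observations. The stromal score ran between -0.150 and 0.990 in withdrawn and between -1.12 and 0.193 in supplied embryos, and its part in the difference of Plagl1 was not tested.

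Peg3, another zinc finger gene read from the paternal allele (chromosome 7), had nearly equal means, with an SD of 0.15 in withdrawn and 0.0621 in supplied embryos; the difference in spread was not tested. Its values were 16.02, 16.05, 15.92, 16.32 and 16.08 in withdrawn embryos 1 to 5, against 16.08, 16.19, 16.04, 16.04 and 16.04 in supplied embryos 1 to 5. Withdrawn embryos 4 and 3 were the highest and the lowest of all 10. The difference was -0.00061 with an interval from -0.15 to 0.15 (limma adjusted p = 0.999), and its sign turned under 10 of 21 other settings. With quantile normalization it was -0.11.

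Igf2 and H19, neighbours on chromosome 7 that share enhancers, were both somewhat higher in withdrawn embryos, short of the threshold. Igf2 is the main fetal insulin-like growth factor and is read from the paternal allele, while the noncoding H19, which ends 72.6 kb from it, is read from the maternal one. Igf2 was at 16.04, 16.09, 16.01, 16.22 and 15.96 in withdrawn embryos 1 to 5, against 16.02, 16.03, 16.01, 15.89 and 15.88 in supplied embryos 1 to 5. Supplied embryos 4 and 5 were the lowest of all, and withdrawn embryo 4 was the highest. The difference of Igf2 was 0.099 (SE 0.0623, interval -0.033 to 0.23, limma adjusted p = 0.963). It was 0.059 without withdrawn embryo 4 and 0.011 with quantile normalization.

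H19 was at 16.70, 16.60, 16.53, 16.68 and 16.49 in withdrawn embryos 1 to 5, against 16.58, 16.52, 16.55, 16.38 and 16.37 in supplied embryos 1 to 5. The same 2 supplied embryos, 4 and 5, were the lowest. The difference of H19 was 0.12 (SE 0.0663, interval -0.023 to 0.26, limma adjusted p = 0.960), and with quantile normalization it was 0.068. Supplied embryos 4 and 5 are also 2 of the 3 embryos of high Malat1; without those 3 the differences were 0.059 for Igf2 and 0.064 for H19.

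Cdkn1c, a cyclin-dependent kinase inhibitor (p57) read from the maternal allele of chromosome 7, did not differ between the groups beyond their spread. It was at 14.03, 13.83, 13.74, 13.93 and 14.01 in withdrawn embryos 1 to 5, against 14.00, 14.27, 13.99, 13.60 and 13.80 in supplied embryos 1 to 5. Both extremes were supplied embryos, number 2 at the top and number 4 at the bottom. The difference was -0.024 (SE 0.0953, interval -0.23 to 0.18, limma adjusted p = 0.999). Without supplied embryos 2 and 3 it turned to 0.11, and without the 3 embryos of high Malat1 it was -0.14.

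Mest, a gene of a hydrolase-like membrane protein read from the paternal allele of chromosome 6, had overlapping groups and close means. Its values ran between 14.22 and 14.46 in withdrawn embryos and between 14.16 and 14.39 in supplied embryos. The difference was 0.016 (SE 0.0581, interval -0.11 to 0.14, limma adjusted p = 0.998). Mest overlaps Copg2 on the other strand, and the sources used here do not say whether counting used strand.

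Zrsr1, a splicing factor gene that lies within an intron of Commd1 on chromosome 11 and is read from the paternal allele, was lower in withdrawn embryos without passing over all genes. It was at 9.33, 9.26, 9.33, 9.30 and 9.37 in withdrawn embryos 1 to 5, against 9.36, 9.49, 9.50, 9.43 and 9.35 in supplied embryos 1 to 5. The supplied embryos rich in neuroendocrine genes, 2 and 3, were the highest. The difference was -0.11 (SE 0.0452, interval -0.20 to -0.012, limma adjusted p = 0.928), or 0.928-fold. It was -0.061 without supplied embryos 2 and 3 and -0.068 with the neuroendocrine score as a covariate, and in neither was the unadjusted limma p under 0.05. Commd1, which runs on the other strand, was at 9.31 ± 0.0732 in withdrawn and 9.31 ± 0.0681 in supplied embryos.

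Meg3, a noncoding RNA read from the maternal allele of chromosome 12, was among the most variable genes between embryos and did not follow the groups. It was at 12.94, 13.06, 13.60, 12.99 and 12.65 in withdrawn embryos 1 to 5, against 12.69, 13.07, 12.78, 13.31 and 13.58 in supplied embryos 1 to 5. Withdrawn embryo 3 and supplied embryos 5 and 4, those of high Malat1, were the highest. The difference was -0.041 (SE 0.161, interval -0.38 to 0.30, limma adjusted p = 0.999), and 0.061 without those 3 embryos.

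Zdbf2, a zinc finger gene of chromosome 1 read from the paternal allele and known in mouse for growth after birth, was lower in withdrawn embryos on average, short of the threshold. It was at 10.73, 10.78, 10.68, 11.003 and 10.77 in withdrawn embryos 1 to 5, against 10.86, 11.90, 11.30, 10.84 and 10.76 in supplied embryos 1 to 5. Supplied embryos 2 and 3 were above all others, and the other 3 supplied embryos lay within the range of the withdrawn ones. The difference was -0.34 (SE 0.157, 0.789-fold, interval -0.67 to -0.0089, limma adjusted p = 0.931). It was -0.029 without supplied embryos 2 and 3 and -0.0089 with the neuroendocrine score as a covariate, -0.15 without supplied embryo 2 alone, -0.21 with embryos of a shared title number averaged, and -0.53 without the 3 embryos of high Malat1.

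Asb4, an adaptor of a ubiquitin ligase read from the maternal allele of chromosome 6, spread over a wide range in both groups. It was at 9.89, 9.56, 9.44, 10.04 and 9.62 in withdrawn embryos 1 to 5, against 9.89, 10.32, 9.99, 9.50 and 9.49 in supplied embryos 1 to 5. Supplied embryo 2 was the highest and withdrawn embryo 4 the next. The difference was -0.13 (SE 0.138, interval -0.42 to 0.17, limma adjusted p = 0.991), and it turned to 0.086 without supplied embryos 2 and 3. It was -0.29 without the 3 embryos of high Malat1, -0.21 without withdrawn embryo 4 and -0.0059 without supplied embryo 2.

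**Figure D2:**
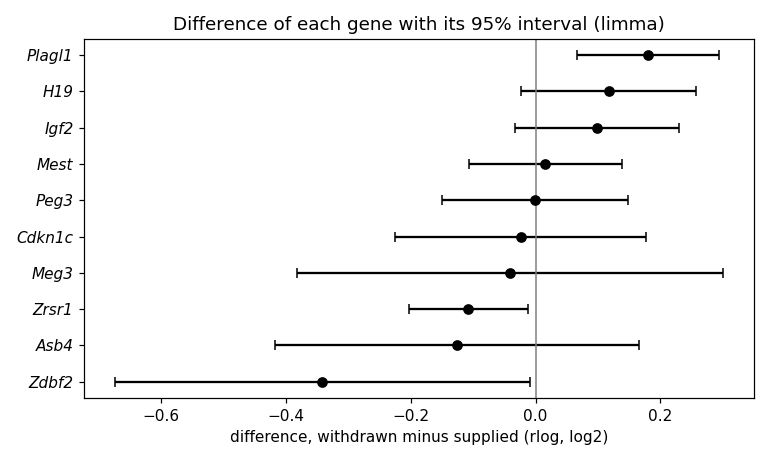
Points are the limma difference of each gene, withdrawn minus supplied, in rlog units (log2), and bars are 95% intervals that are not adjusted for the number of genes. The intervals of Plagl1, Zrsr1 and Zdbf2 do not include 0, and that of Zdbf2 ends at -0.0089.

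Over all 10 embryos, Zdbf2, Meg3, Asb4 and Cdkn1c varied most of the set. The SD over all 10 embryos was 0.376 for Zdbf2, 0.339 for Meg3, 0.294 for Asb4 and 0.187 for Cdkn1c, larger than that of 99.8%, 99.7%, 99.5% and 98.2% of all genes. Zrsr1 (0.0792) and Mest (0.0881) had the smallest SD of the set. The highest embryo exceeded the lowest 2.34-fold for Zdbf2, 1.93-fold for Meg3 and 1.84-fold for Asb4 on the rlog scale, and 1.27-fold for Igf2. The spread of Zdbf2 rests largely on supplied embryos 2 and 3, at 11.90 and 11.30. In the other embryos Zdbf2 ran between 10.68 and 11.003, and Asb4 between 9.44 and 10.04. Outside the 3 embryos of high Malat1, Meg3 ran between 12.65 and 13.07.

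Igf2 and H19 varied together between embryos. Over 10 embryos Pearson's r was 0.862 (permutation p = 0.00165, adjusted p = 0.0238 over 45 pairs of the set) and Spearman's rho 0.891 (permutation p = 0.00111, adjusted p = 0.0499). Without the 2 embryos farthest from the median of Igf2, r was 0.829. It was 0.870 without supplied embryos 2 and 3 and 0.687 without the 3 embryos of high Malat1, and with quantile normalization it was 0.312. The pair missed the threshold in these 3 settings, with group-centred values (r = 0.804, adjusted p = 0.0928) and with averaged title numbers (r = 0.866, adjusted p = 0.162).

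Of the 45 pairs 4 passed by Pearson's r, and 0 passed without supplied embryos 2 and 3 or without the 3 embryos of high Malat1. Plagl1 and Zrsr1 moved oppositely, with r = -0.850 (permutation p = 0.00212, adjusted p = 0.0238) and rho = -0.867 (permutation p = 0.00222, adjusted p = 0.0499). Their r was -0.807 without the 2 embryos farthest from the median of Plagl1, -0.705 (exact permutation, adjusted p = 0.209) without supplied embryos 2 and 3, and -0.672 (adjusted p = 0.152) with values centred on the group means. Cdkn1c and Asb4, read from the maternal alleles of different chromosomes, had r = 0.851 (permutation p = 0.00176, adjusted p = 0.0238) and rho = 0.758 (permutation p = 0.0144, adjusted p = 0.163). Their r was 0.759 without the 2 embryos farthest from the median of Cdkn1c and 0.717 without supplied embryos 2 and 3. Zdbf2 and Asb4 also passed, but supplied embryos 2 and 3 form a separate cluster for Zdbf2, so the pooled coefficient is not given; in the other 8 embryos r was 0.652 (exact permutation p = 0.0704, adjusted p = 0.215).

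**Figure D3:**
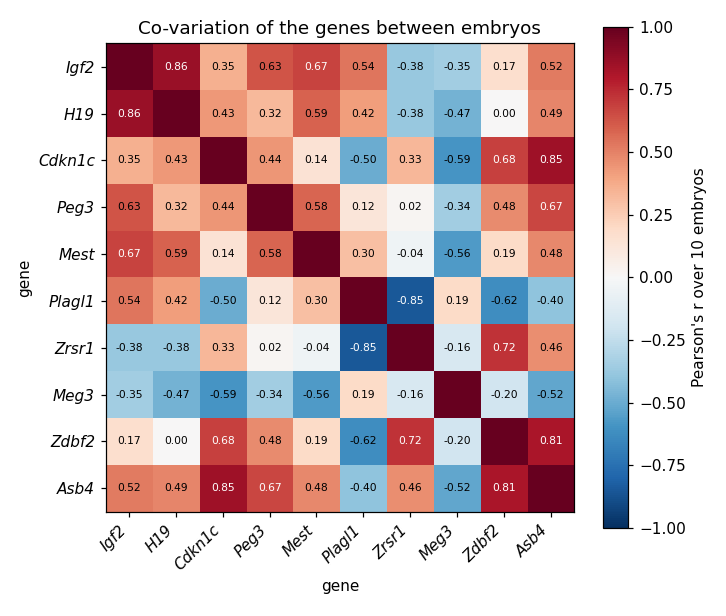
The grid gives Pearson's r over 10 embryos for each pair of the 10 genes, red for positive and blue for negative. Igf2 with H19 (0.86), Cdkn1c with Asb4 (0.85) and Plagl1 with Zrsr1 (-0.85) are the strongest pairs. Supplied embryos 2 and 3 stand apart for Zdbf2. Without them r was 0.652 for Zdbf2 with Asb4, 0.870 for Igf2 with H19, 0.717 for Cdkn1c with Asb4 and -0.705 for Plagl1 with Zrsr1. Meg3 is positive with Plagl1 (0.19) and negative with the other 8 genes (-0.59 to -0.16).

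Meg3 varied with Rian, another noncoding RNA read from the maternal allele of the same domain, which lies 32.2 kb downstream. Rian was at 12.38, 12.42, 12.64, 12.36 and 12.12 in withdrawn embryos 1 to 5, against 12.13, 12.37, 12.14, 12.40 and 12.59 in supplied embryos 1 to 5. Over 10 embryos r was 0.952 (permutation p = 8e-05, adjusted p = 0.00152 over 19 pairs) and rho 0.915 (permutation p = 0.000400, adjusted p = 0.00760). It was 0.887 without the 2 embryos farthest from the median of Meg3. In the 7 embryos of lower Malat1 it was 0.948 (exact permutation, adjusted p = 0.0697). The paternally read Dlk1 (r = -0.256) and Rtl1 (r = 0.265) and the noncoding Mirg (r = 0.511) of the same domain did not pass.

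The 19 pairs, each of a gene of the set and a neighbour of its imprinted domain, were drawn up after the values of the set had been seen, and 2 passed. Asb4 varied with Peg10, a retrotransposon-derived gene read from the paternal allele 623 kb away. By group-centred values Peg10 ranked 92 among all genes by likeness to Asb4. Peg10 was at 13.92, 13.69, 13.73, 13.89 and 13.95 in withdrawn embryos 1 to 5, against 13.93, 14.30, 14.02, 13.60 and 13.77 in supplied embryos 1 to 5. For Asb4 and Peg10 r was 0.877 (permutation p = 0.000900, adjusted p = 0.00855) and rho 0.733 (permutation p = 0.0194, adjusted p = 0.123). It was 0.758 without the 2 embryos farthest from the median of Asb4, and 0.716 (adjusted p = 0.166) without supplied embryos 2 and 3. Sgce (r = -0.158), which starts beside Peg10, and Ppp1r9a (r = -0.170) did not pass with Asb4.

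Cdkn1c ran against Kcnq1ot1, the noncoding RNA read from the paternal allele that silences Cdkn1c on it, without passing over the 19 pairs. Kcnq1ot1 was at 12.36, 12.26, 12.85, 12.28 and 12.34 in withdrawn embryos 1 to 5, against 12.14, 12.17, 12.18, 12.62 and 12.53 in supplied embryos 1 to 5. The r was -0.746 (permutation p = 0.0125, adjusted p = 0.0639), and it was -0.325 in the 7 embryos of lower Malat1. Kcnq1 (r = -0.721, adjusted p = 0.0645) and Nap1l4 (r = 0.743, adjusted p = 0.0639) were short of the threshold too, and Kcnq1 overlaps Kcnq1ot1 on the other strand. For Mest, r was 0.591 with Copg2 and -0.665 with Mir335 (permutation, adjusted p = 0.193 and 0.111). Without the 2 embryos farthest from the median of Mest, r was 0.429 with Copg2 and -0.059 with Mir335. In the 7 embryos of lower Malat1 these were 0.419 and -0.319.

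**Figure D4:**
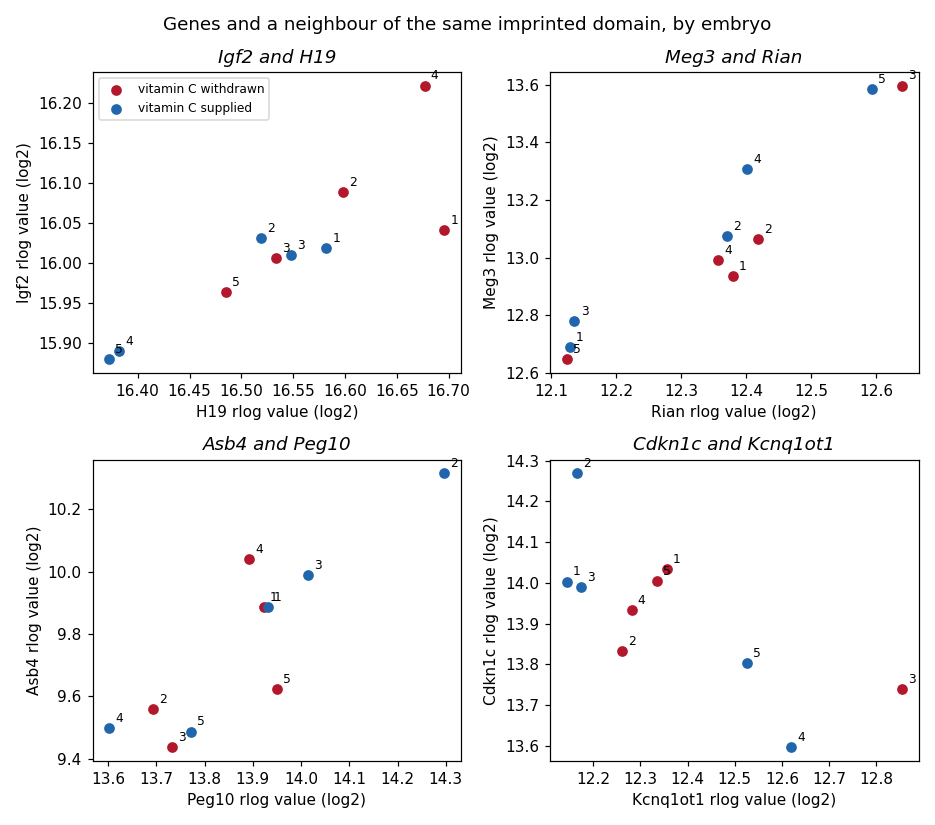
Each panel plots a gene of the set (vertical) against a neighbour of its imprinted domain (horizontal), both as rlog values (log2), with 5 withdrawn (red) and 5 supplied (blue) embryos numbered by replicate. Igf2 with H19, Meg3 with Rian and Asb4 with Peg10 run upwards, and in the panel of Cdkn1c the embryos of high Kcnq1ot1, withdrawn 3 and supplied 4 and 5, hold low Cdkn1c.

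Over all 10 embryos Meg3 had an r of 0.961 with Malat1, 0.873 with Neat1, 0.784 with Rn45s and 0.712 with Xist. Rian (0.858, 0.751, 0.633 and 0.692) and Kcnq1ot1 (0.822, 0.880, 0.856 and 0.952) also ran with each, in the same order. With Malat1, r was -0.615 for Cdkn1c, -0.494 for Peg10 and -0.616 for Asb4. The 3 embryos of high Malat1 stand apart in these pooled values. Within the 7 embryos of lower Malat1, where the nuclear RNAs span a narrower range, r differed more between them. Meg3 had an r of 0.844 with Malat1, but of 0.031 with Neat1, 0.0088 with Rn45s and -0.084 with Xist. Rian had an r of 0.728 with Malat1, 0.106 with Neat1, -0.052 with Rn45s and 0.212 with Xist. Kcnq1ot1 had an r of 0.856 with Xist, but of -0.152 with Malat1, 0.010 with Neat1 and 0.247 with Rn45s. Cdkn1c, Peg10 and Asb4 ran against Xist (-0.630, -0.765 and -0.748), while with Malat1 their r was 0.263, 0.214 and 0.280. These coefficients describe RNAs picked after their values were seen, share 1 depth and 1 normalization per library, and have no test. The part of nuclear RNA content in the co-variation was not tested.

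Zdbf2 and Asb4 were looked at beside the neuroendocrine genes. Both were highest in supplied embryo 2, which had the highest neuroendocrine score (1.97), and supplied embryo 3 (0.733) was next for Zdbf2 and the third for Asb4. In the other 8 embryos, whose scores ran between -0.546 and -0.107, r with the score was 0.451 for Zdbf2 (exact permutation p = 0.251) and 0.660 for Asb4 (exact permutation p = 0.0693), with rho of 0.5 and 0.667. Neither passed over the 90 relations of 10 genes and 9 marker lists (adjusted p = 0.683 and 0.445). Withdrawn embryo 4 held the highest Zdbf2 and Asb4 of the withdrawn embryos, at a score of -0.251.

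**Figure D5:**
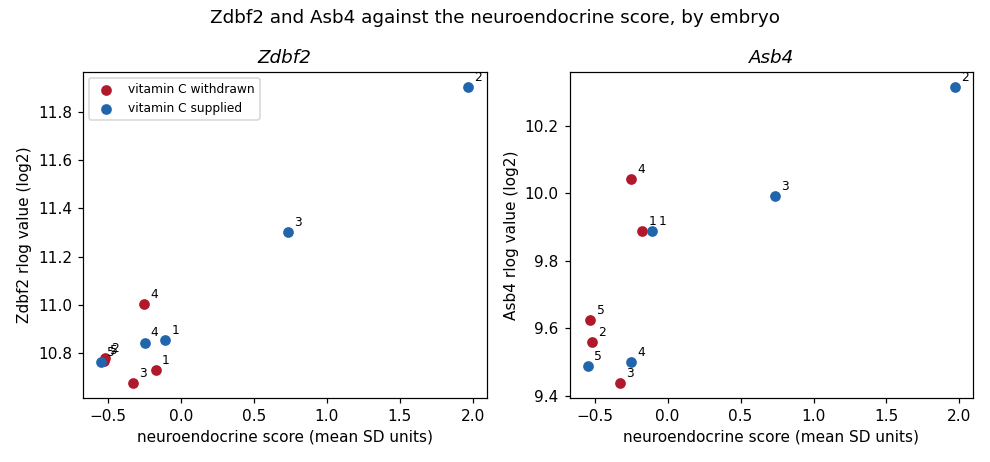
Zdbf2 (left) and Asb4 (right) are plotted as rlog values (log2) against the neuroendocrine score, the mean of 14 genes in SD units, with withdrawn embryos in red and supplied embryos in blue, numbered by replicate. Supplied embryos 2 and 3, at scores of 1.97 and 0.733, are set apart from the other 8. In those 8, Asb4 spans 9.44 to 10.04 over scores between -0.546 and -0.107 (r = 0.660).

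None of the 90 relations to marker lists passed over all 10 embryos, and 15 had an unadjusted p under 0.05. Plagl1 came closest, with r = 0.880 with the stromal score, which itself was higher on average in withdrawn embryos (permutation p = 0.000950, adjusted p = 0.0589) and 0.769 without the 2 embryos farthest from the median of that score. Cdkn1c ran against the immediate early score (r = -0.809, permutation p = 0.00131, adjusted p = 0.0589), and against it r was -0.562 without the 2 farthest embryos, withdrawn embryo 3 and supplied embryo 4. Meg3 ran with the immediate early score (r = 0.718, adjusted p = 0.213). Mest ran against the pregranulosa score (r = -0.756, adjusted p = 0.154).

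By group-centred values over the 10 embryos, the genes nearest to Igf2 were the sialyltransferase gene St8sia2 (r = 0.961), Marcks (0.942) and Arih1 (0.938). Near to Zdbf2 were Fam155a and Nefm. The supplied embryos rich in neuroendocrine genes form a separate cluster for Zdbf2, and they stand apart for Nefm too. The pooled coefficients of Zdbf2 are therefore not given, and its likeness to these genes without those embryos was not tested. Near to Asb4 were Frmd8 (0.981) and Ttc33 (0.976). H19 ranked 110 among all genes by likeness to Igf2, and Rian ranked 4 by likeness to Meg3. Peg10 ranked 2 by likeness to Cdkn1c (r = 0.971) and 92 by likeness to Asb4 (r = 0.870). These are descriptions over 10 embryos, ranked among 13578 genes.

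No other imprinted gene passed either. Of 24 listed as read from the paternal allele 18 were tested, of 25 listed as read from the maternal allele 20 were tested, and 0 of these 38 passed by limma in either direction. Among 18 read from the paternal allele the median difference was 0.0079, with Peg13 at -0.19 (9.81 ± 0.105 in withdrawn and 10.005 ± 0.163 in supplied embryos, limma adjusted p = 0.900), Sfmbt2 at 0.096 and Dlk1 at 0.099. Among 20 read from the maternal allele the median was 0.011, with Tssc4 at -0.081, Blcap at 0.079 and the growth factor receptor gene Igf2r, which clears IGF2, at 0.089 (limma adjusted p between 0.947 and 0.962).

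No factor that writes, reads or erases imprints passed. Of 16 tested, 0 passed by limma and 12 were above 0, beside 6813 of all 13578 genes. These factors were measured in the same embryos, so they are not separate observations. Tet1 (0.13), Setdb1 (0.096) and Dnmt3a (0.072) had the smallest p (limma adjusted p between 0.931 and 0.963). Of 18 genes of the IGF axis 0 passed. Its growth receptor Igf1r was at 13.21 ± 0.0589 in withdrawn and 13.10 ± 0.0870 in supplied embryos (0.12, limma adjusted p = 0.928), and the binding protein gene Igfbp5 was at 0.13. Of 11 cyclins, kinases and inhibitors that work beside Cdkn1c 0 passed, with the cyclin genes Ccnd1 at -0.13, Ccnd3 at 0.097 and Ccne2 at -0.070.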

How the data were processed

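The deposited table holds regularised log2 values (rlog) made by the authors for 13578 genes in 10 samples. RNA came from sorted somatic cells, with 2 ng of total RNA per library of a total RNA pico-input kit, per the labels' protocols. Trim Galore 0.4.0, TopHat2 2.1.1, DESeq2 1.20.1 and the build mm9 are named in the submitters' processing notes; the counting tool and its use of strand are not given in the sources used here. The rlog scale shrinks differences of weakly expressed genes, and without counts the depth is unknown.

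From these values withdrawn minus supplied was fitted over all 13578 genes and 10 embryos with limma 3.58.1 in R 4.3.3 (variance trend, no filter, Benjamini-Hochberg threshold 0.05). Correlations used 100000 permutations at 10 embryos and exact permutation below that, two-sided, adjusted within 45 pairs of the set, 90 relations to marker scores and 19 domain pairs (scipy 1.17.1). A score is the mean of a list's genes, each in SD units over the embryos. Scripts were tested on simulated data. No pair of columns was a duplicate.

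Named genes were the 10 of the set, the 3 of smallest limma p in each list of other imprinted genes, imprint factors, IGF axis and kinase partners, the 3 nearest genes to Igf2, Zdbf2 and Asb4, and 4 neuroendocrine genes of widest range. Some genes that this rule names are not reported here. The genes and lists were chosen with earlier results of these data known. Promoter and microRNA sequences are RefSeq's on GRCm38.p6, matched by symbol; gene positions and distances are from GENCODE on GRCm38, and no coordinate was converted from mm9. Alternatives covered a minimum mean of 7, no variance trend, robust variance, sample weights, median centring, quantile normalization, group-centred values, averaged title numbers, a replicate block, the neuroendocrine score as a covariate, each embryo left out, and the embryos that stood apart left out.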

Additional observations from a re-analysis of the deposited data

Results flagged for a closer look

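In 56 groups of 5 embryos looked at, 3 had an embryo far from the others by Dixon's test (critical value 0.71), and chance flags about 1 group in 20. Peg3 was at 16.19 in supplied embryo 2, against 16.04 to 16.08 in the other 4 supplied embryos. Igfbp5, an IGF binding protein gene, was at 16.05 in withdrawn embryo 2, against 15.88 to 15.91 in the other 4 withdrawn embryos. Tubb3, a neuronal tubulin gene, was at 6.90 in supplied embryo 2, against 5.89 to 6.12 in the other 4 supplied embryos, and this embryo also had the highest neuroendocrine score (1.97).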

How the results depend on the processing

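With 0 of 10 genes of the set and 0 of 38 other imprinted genes past the limma threshold, both counts stayed at 0 under all 21 alternatives. The count over all genes was 3. It was 1 with a minimum mean of 7, with no variance trend, with quantile normalization and with averaged title numbers, 5 with robust variance and with sample weights, 6 without the 3 embryos of high Malat1 (a setting chosen after seeing the data, as was leaving out supplied embryos 2 and 3 for the differences), and 0 to 4 with each embryo left out (0 without withdrawn embryo 5 or supplied embryo 1). Differences of Igf2, H19, Plagl1, Zrsr1 and Zdbf2 kept their sign throughout. Peg3 turned to 0.00012 with median centring, 0.010 with sample weights, 0.032 with averaged title numbers, 0.038 with the neuroendocrine covariate, 0.023 without supplied embryos 2 and 3 and 0.015 without the 3 embryos of high Malat1, was -0.11 with quantile normalization, and ran between -0.062 and 0.040 with each embryo left out. Cdkn1c turned to 0.056 with averaged title numbers, 0.12 with the covariate and 0.11 without supplied embryos 2 and 3, with -0.11 to 0.060 on leaving out each embryo. For Asb4 the same settings gave 0.0064, 0.12 and 0.086. Mest was -0.0039 with quantile normalization and -0.025 to 0.044 on leaving out each embryo. Meg3 was 0.061 without the 3 embryos of high Malat1, -0.15 with averaged title numbers, -0.15 without supplied embryos 2 and 3, -0.12 with the covariate and -0.18 to 0.084 on leaving out each embryo. The cause of these turns was not tested.

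Pairs of the set past the threshold numbered 4. They numbered 2 with group-centred values, 0 with quantile normalization, averaged title numbers or either set of embryos left out, and 0 to 4 with each embryo left out (0 without withdrawn embryo 2 or 3, or supplied embryo 2, 3 or 5). Domain pairs numbered 2, against 4 with median centring, 1 without supplied embryos 2 and 3, 0 without the 3 embryos of high Malat1, and 1 to 3 with each embryo left out. Relations to the neuroendocrine score numbered 0, against 1 with group-centred values, 1 with median centring and 2 with quantile normalization. Smaller numbers of embryos raise the smallest p that permutation can give, and the part of this in the counts was not tested. Quantile normalization, with 0 pairs of the set, kept all 10 embryos.

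With the replicate block, 2 genes passed and 0 of the set. Deviations of same-numbered embryos had r of 0.172, -0.181, -0.364, -0.0908 and -0.103, against a median of 0.0155 between other numbers. Each value comes from a single pair of embryos, so they do not settle whether the replicate numbers pair the samples. Embryos 2 and 3, which share a title number, were more alike than the median pair of their group (r = 0.0000277 against -0.293 in withdrawn and 0.138 against -0.258 in supplied embryos). Each group holds a single such pair, so these values do not settle what the shared number means. In the supplied group the pair is also the embryos rich in neuroendocrine genes. Averaging embryos 2 and 3 of each group gave -0.21 for Zdbf2 and -0.084 for Zrsr1.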
